A study of Mus musculus with 9 samples.

Results

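The tumor suppressor p53, encoded by Trp53 in the mouse, and 9 genes that work with it or are switched on by it were followed in the T15 cell line. The genes were taken by name from a list drawn up with earlier results of these data known: Trp53, its inhibitors Mdm2 and Mdm4, and the target genes Ccng1, Sesn1, Sesn2, Zmat3, Phlda3, Trp53inp1 and Aen. All 10 were found among the 35288 Ensembl genes of the count table, and all 10 passed the filter on low counts, which left 13697 genes to test. T15 is a murine line of peripheral T-cell lymphoma (PTCL) that lacks Smarcb1, a core subunit of the SWI/SNF chromatin remodeling complex, and that was derived from a mouse model of Smarcb1 loss. Total RNA of 9 cultures was sequenced, with 3 libraries in each of 3 groups, described in the study's methods as biological replicates. The control group consisted of T15 cells without SAHA and without Smarcb1. The SAHA group had received SAHA (vorinostat), an inhibitor of histone deacetylases, at 1 µM, in 2 doses within 72 h. The study reports that this concentration strongly induced apoptosis in T15 cells, leaving the large majority dead. The part of cell death in the results of this group was not tested. The Smarcb1-RE group carried a lentiviral Smarcb1 expression plasmid (pInd20), was selected with G418 and was induced with doxycycline (Dox, 0.5 µg/µl) for 72 h. All groups share the loss of endogenous Smarcb1. The study's text calls the sequenced control cells untreated, whereas the labels mention both a control plasmid (re-expression) and a vehicle (SAHA), without saying whether the 3 control libraries had received either. In Smarcb1-RE against control, the effects of transduction, selection and Dox therefore cannot be told apart from that of Smarcb1. Likewise, in SAHA against control an effect of the vehicle cannot be told apart from that of SAHA. Stable clones were made from the transduced cells, and the titles do not say which clone each Smarcb1-RE library came from.

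p53 is a transcription factor that is held at low levels in unstressed cells, because the ubiquitin ligase Mdm2 marks it for degradation and its partner Mdm4 blocks its activity. DNA damage and other stresses release it from this control, mostly at the level of the protein, and it then binds to paired decamer motifs near its target genes. The targets arrest the cell cycle, repair DNA, adapt metabolism or trigger apoptosis, and Mdm2 is itself a target, which closes a feedback loop. In T cells p53 limits lymphoma formation, and the loss of the locus of its activator Arf (Cdkn2a) or of p53 itself is common in lymphoid tumors. RNA levels do not show how much p53 protein was present or active.

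Library totals ranged from 20900477 to 24941494 counts, so that 3 counts, taken as the detection floor, correspond to between 0.123 and 0.133 CPM (counts scaled to a library of 1000000). This floor and the counting intervals given for low genes cover counting error only, whereas the confidence intervals of fold changes come from the fit and include the spread between libraries. The share of mitochondrial counts was 3.02% to 3.53% in control, 3.37% to 3.76% in SAHA and 4.79% to 5.08% in Smarcb1-RE. Of 10 T-cell markers, 8 were expressed and Cd2 and Cd5 had at most 3 counts in every library. Their summed level was 2680 to 2871 CPM in control, 2529 to 2567 CPM in SAHA and 2672 to 2696 CPM in Smarcb1-RE. The 4 B-cell markers summed to 0.936 to 1.14, 1.24 to 1.86 and 7.25 to 7.97 CPM in the same order (Cd79b had at most 3 counts in every library), the 6 myeloid markers to 0.634 to 0.765, 0.0884 to 0.173 and 0.177 to 0.345 CPM, and the 6 stromal and epithelial markers to 156 to 162, 117 to 131 and 195 to 199 CPM. The part of mitochondrial counts and of these markers in the results was not tested. Control replicate 1 stood apart from the other controls, with a chi-square per gene of 13.4 and 15.0 against them, whereas the other replicate pairs reached 2.12 to 4.69. Smarcb1 itself had 2, 5 and 8 counts in control, 7, 13 and 3 after SAHA, whereas Smarcb1-RE had 151, 147 and 142.

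The promoters of the p53 genes were read from RefSeq (GRCm38.p6), in windows of 250 bases before to 50 bases after each start, to show where the p53 consensus decamer lies in genes that moved in these data. Windows were given for 8 of the 10 genes, with Zmat3 and Trp53inp1 missing. The decamer, which reads the same on both strands in its consensus form, was found in 5 of the 8 genes (6 of their 11 windows), compared with 8.36% of all 32851 windows and 9.55% of all 27025 genes. No match was found in the windows of Mdm4, Sesn2 and Phlda3, and sites outside the windows were not searched. The genes were listed as p53 itself, its inhibitors and its targets. A share above that of all genes could therefore follow from the choice of the list. Below, 30 bases are given 5′ to 3′ on the strand of the gene, with the decamer in capitals; a match of letters is a description and shows no binding.
Trp53: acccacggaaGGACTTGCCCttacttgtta
Mdm2: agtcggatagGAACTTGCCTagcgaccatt
Ccng1: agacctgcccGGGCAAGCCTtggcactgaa
Sesn1: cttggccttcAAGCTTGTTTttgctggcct
Aen: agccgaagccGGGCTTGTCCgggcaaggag
Cdkn1a: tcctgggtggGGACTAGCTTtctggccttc
Cdkn1a: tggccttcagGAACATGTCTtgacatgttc
The coordinates given are those of the 30 bases shown, and distances are counted to the first base of the decamer. The Trp53 decamer (shown within chr11:69580274-69580303, plus strand) began 75 bases before the start, the Mdm2 decamer (within chr10:117710925-117710954, minus strand) 186 bases before it and the Ccng1 decamer (within chr11:40755452-40755481, minus strand) 185 bases before it. The Sesn1 match (within chr10:41887256-41887285, plus strand) began 173 bases before the downstream of its 2 starts, and the Aen match (within chr7:78895927-78895956, plus strand) began 121 bases before the downstream start and 10 bases after the upstream start. Ccng1 also had the fullest site among the listed genes: a decamer pair without spacer matched 19 of the 20 letters of the consensus, as in 0.0883% of all windows (29 windows). Cdkn1a, a textbook p53 target outside the list of 10, is shown for comparison. Its matches (within chr17:29090896-29090925 and chr17:29090918-29090947, plus strand) began 73 and 51 bases before the upstream of its 2 starts. In that window its best adjoining pair also matched 19 of 20 letters. The window of the downstream start (chr17:29093519-29093818) held no decamer, and its best pair matched 15 of 20 letters.

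To ask how HDAC inhibition and Smarcb1 re-expression each changed the p53 genes, both groups were compared with the same 3 control libraries, and then directly with each other (quasi-likelihood test of edgeR, adjusted over all tested genes after Benjamini and Hochberg, adjusted p under 0.05). In SAHA-treated cells, 6 of the 10 genes were upregulated (Mdm2, Mdm4, Ccng1, Sesn1, Sesn2 and Trp53inp1), 3 were downregulated (Trp53, Zmat3 and Aen), and Phlda3 did not pass the test. Of all tested genes, 32.6% were called higher and 34.3% lower in this comparison, and in 68.7% the libraries of the 2 groups did not overlap, as they did not for 9 of the 10 p53 genes. In Smarcb1-RE cells, 5 genes were upregulated (Mdm4, Ccng1, Sesn1, Sesn2 and Trp53inp1) and 4 were downregulated (Trp53, Mdm2, Phlda3 and Aen), while Zmat3 did not pass. Here 39.2% of all tested genes were higher, 38.6% were lower and 79.5% did not overlap between groups, compared with 9 of the 10. With library totals in place of TMM factors, the median of all genes in this comparison moved from 0.01 to 0.17 on the log2 scale, the share of higher among called genes from 50.4% to 61.0%, and Mdm2 was no longer called lower. Without control replicate 1, the counts stayed at 6 higher and 3 lower in SAHA and at 5 higher and 4 lower in Smarcb1-RE. The changes spanned a wide range of sizes, from 1.07-fold for Mdm2 to 9.53-fold for Trp53inp1 in the Smarcb1-RE cells.

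**Figure D1:**
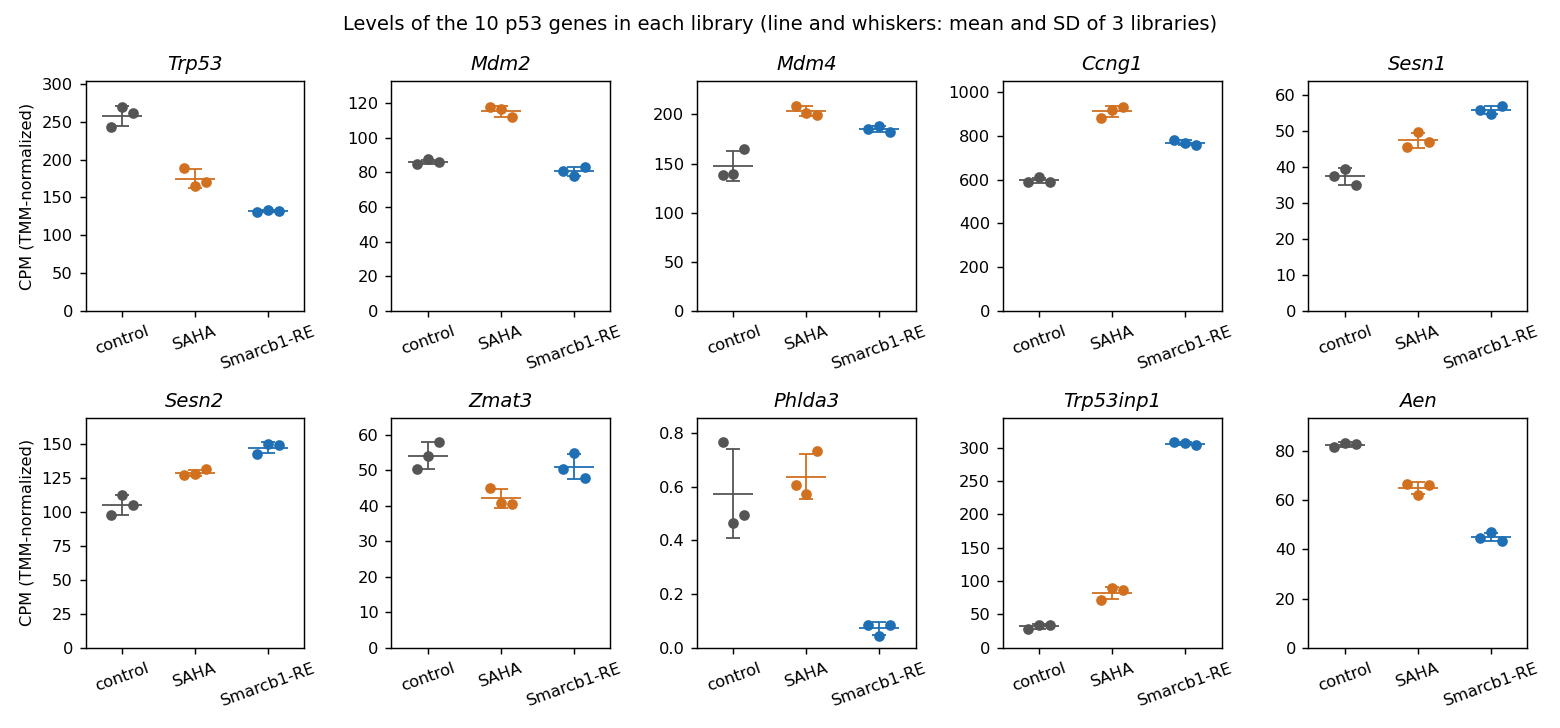
TMM-normalized level (CPM, linear axis from 0) of the 10 p53 genes in each of the 9 libraries, with 1 panel per gene; points are libraries, and the line and whiskers give the mean and SD of the 3 libraries of a group. Trp53 and Aen are highest in control and lowest in Smarcb1-RE, Trp53inp1 reaches 304 to 308 CPM in Smarcb1-RE against 28.2 to 34.4 CPM in control, and Mdm2 is highest in SAHA.

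Trp53 (ENSMUSG00000059552, chr11:69580359-69591873, plus strand), the transcription factor itself, fell in both treated groups. Its level was 243, 269 and 261 CPM in the control libraries, 189, 166 and 170.5 CPM in the SAHA libraries and 130.3, 134 and 132 CPM in the Smarcb1-RE libraries. The 3 groups did not overlap, and the Smarcb1-RE libraries lay closest together. On the log2 scale Trp53 fell by 0.56 ± 0.05 (SE, n = 3 libraries a group, edgeR adjusted p = 1.28e-06) in SAHA, which is 1.47-fold. In Smarcb1-RE it fell by 0.97 ± 0.05 (edgeR adjusted p = 4.32e-09), which is 1.95-fold. The direct comparison placed Smarcb1-RE below SAHA by 1.33-fold (log2 difference -0.41 ± 0.05, edgeR adjusted p = 1.7e-05). After subtraction of the median of the tested protein-coding genes of chromosome 11, which was -0.20, this log2 difference was -0.21. The part of the chromosome in it was not tested. In bulk RNA, fewer cells expressing a gene and less RNA per cell cannot be told apart. The processed pseudogene Trp53-ps on chromosome 17, which could share reads with Trp53, had between 0 and 3 counts per library.

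The inhibitors of p53 followed different courses. Mdm2 (ENSMUSG00000020184, chr10:117688875-117710758, minus strand), the ubiquitin ligase, measured 84.9, 87.4 and 86.0 CPM in control, 118, 116 and 112 CPM in SAHA and 80.5, 78.1 and 83.0 CPM in Smarcb1-RE. The SAHA libraries were thus above both other groups, while the Smarcb1-RE libraries lay just under control. Against control, Mdm2 rose by 1.34-fold in SAHA (95% confidence interval 1.26 to 1.42, edgeR adjusted p = 1.28e-06). The Smarcb1-RE level was 1.07-fold lower than control (log2 difference -0.10 ± 0.04, edgeR adjusted p = 0.0454), a call that depended on the processing: with library totals only, the difference turned to 0.06 (edgeR adjusted p = 0.185), and without control replicate 2, control replicate 3, Smarcb1-RE replicate 1 or Smarcb1-RE replicate 2 the edgeR adjusted p was 0.073, 0.0508, 0.0677 and 0.152. Between the treated groups, Mdm2 was 1.43-fold lower in Smarcb1-RE (edgeR adjusted p = 1.1e-07).

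Mdm4 (ENSMUSG00000054387, chr1:132959484-133030561, minus strand), which binds p53 and masks its activation domain, rose in both treated groups. The control libraries held 138, 139.8 and 165 CPM, the SAHA libraries 209, 201 and 199 CPM, and the Smarcb1-RE libraries 185, 188 and 182 CPM. Control replicate 3 was the nearest to the treated groups, without reaching them. The increase was 1.38-fold in SAHA (log2 0.46 ± 0.06, edgeR adjusted p = 2.04e-05). In Smarcb1-RE it was 1.25-fold (log2 0.33 ± 0.06, edgeR adjusted p = 0.000274). The difference between the treated groups, -0.13 on the log2 scale (95% confidence interval -0.26 to -0.01), did not pass the test (edgeR adjusted p = 0.0564), although each SAHA library was above each Smarcb1-RE library; it passed with DESeq2 (adjusted p = 0.0295) and turned to 0.02 with library totals.

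Ccng1 (ENSMUSG00000020326, chr11:40748552-40755311, minus strand) encodes cyclin G1, a classical p53 target that acts back on Mdm2 through a phosphatase. With 589, 610.2 and 591 CPM in control, 882, 918 and 934 CPM in SAHA and 779.8, 769 and 759 CPM in Smarcb1-RE, it was the most abundant of the 10 transcripts in every library. Against control it rose by 1.53-fold in SAHA (log2 0.61 ± 0.04, edgeR adjusted p = 3.11e-08). In Smarcb1-RE it rose by 1.29-fold (log2 0.37 ± 0.04, edgeR adjusted p = 1.43e-06). Ccng1 was thereby 1.18-fold lower in Smarcb1-RE than in SAHA (edgeR adjusted p = 6.22e-05). The 1046 tested protein-coding genes of chromosome 11 had a median log2 difference of -0.20 in this comparison. After subtraction of that median, the log2 difference of Ccng1 was -0.05 instead of -0.24. In Smarcb1-RE against control the chromosome median was -0.13, and its subtraction moved Ccng1 from 0.37 to 0.50. The part of the chromosome in these differences was not tested.

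The sestrins, stress-induced proteins that restrain mTORC1 signaling and protect from oxidants, went up in both treated groups and more in Smarcb1-RE than in SAHA. Sesn1 (ENSMUSG00000038332, chr10:41809935-41908424, plus strand) rose from 37.6, 39.6 and 35.0 CPM in control to 45.6, 49.8 and 47.0 CPM in SAHA and to 55.8, 54.8 and 57.0 CPM in Smarcb1-RE. The 3 groups were separate, with log2 differences of 0.34 ± 0.05 for SAHA (edgeR adjusted p = 9.04e-05), 0.58 ± 0.05 for Smarcb1-RE (edgeR adjusted p = 4.28e-07) and 0.24 ± 0.05 between the treated groups (edgeR adjusted p = 0.00111). Sesn2 (ENSMUSG00000028893, chr4:132492032-132510501, minus strand), which also answers to amino acid and endoplasmic reticulum stress, measured 98.2, 113 and 105 CPM in control, 127, 128 and 132 CPM in SAHA and 143, 150.2 and 149.5 CPM in Smarcb1-RE. Here too no library of 1 group reached the range of another. The corresponding log2 differences were 0.29 ± 0.05 (edgeR adjusted p = 0.000185), 0.49 ± 0.05 (edgeR adjusted p = 1.24e-06) and 0.19 ± 0.05 (edgeR adjusted p = 0.00305). Sesn2 lies on chromosome 4, whose 778 tested protein-coding genes had a median log2 difference of 0.37 between Smarcb1-RE and control, compared with 0.00 over all 12433 protein-coding genes tested. Sesn2 exceeded this chromosome median by 0.12 on the log2 scale in Smarcb1-RE against control, and lay below it by 0.21 (a value of -0.21) in Smarcb1-RE against SAHA. The part of the chromosome in the Sesn2 difference was not tested.

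Trp53inp1 (ENSMUSG00000028211, chr4:11156431-11174379, plus strand), which encodes a nuclear stress protein that supports the pro-apoptotic activity of p53 and takes part in autophagy, showed the largest increase of the 10 genes in both comparisons with control. Control libraries had 28.2, 34.4 and 33.7 CPM, SAHA libraries 71.1, 89.0 and 85.9 CPM and Smarcb1-RE libraries 308, 306 and 304 CPM. The groups were far apart compared with the spread within them, and the 3 Smarcb1-RE libraries were almost equal. Against control, Trp53inp1 rose by 2.55-fold in SAHA (95% confidence interval 2.24 to 2.91, edgeR adjusted p = 4.17e-08). In Smarcb1-RE it rose by 9.53-fold (8.37 to 10.8, edgeR adjusted p = 1.01e-11). Compared directly, the Smarcb1-RE level was 3.73-fold that of SAHA (edgeR adjusted p = 3.79e-10). Of all 13697 tested genes, 200 had a higher log2 fold change than Trp53inp1 in Smarcb1-RE against control, and 872 in SAHA against control. Trp53inp1 lies on chromosome 4 as well, and after subtraction of the median of the other genes there its log2 fold change in Smarcb1-RE was 2.89 instead of 3.25. The 10 tested genes within 500 kb of it had a median log2 fold change of 0.31 in Smarcb1-RE against control, from -0.14 for Ccne2, its nearest tested neighbor, to 1.46 for Fsbp (both named after their values were seen). In SAHA the same neighbors had a median of -0.14 and reached at most 0.11, compared with 1.35 for Trp53inp1.

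**Figure D2:**
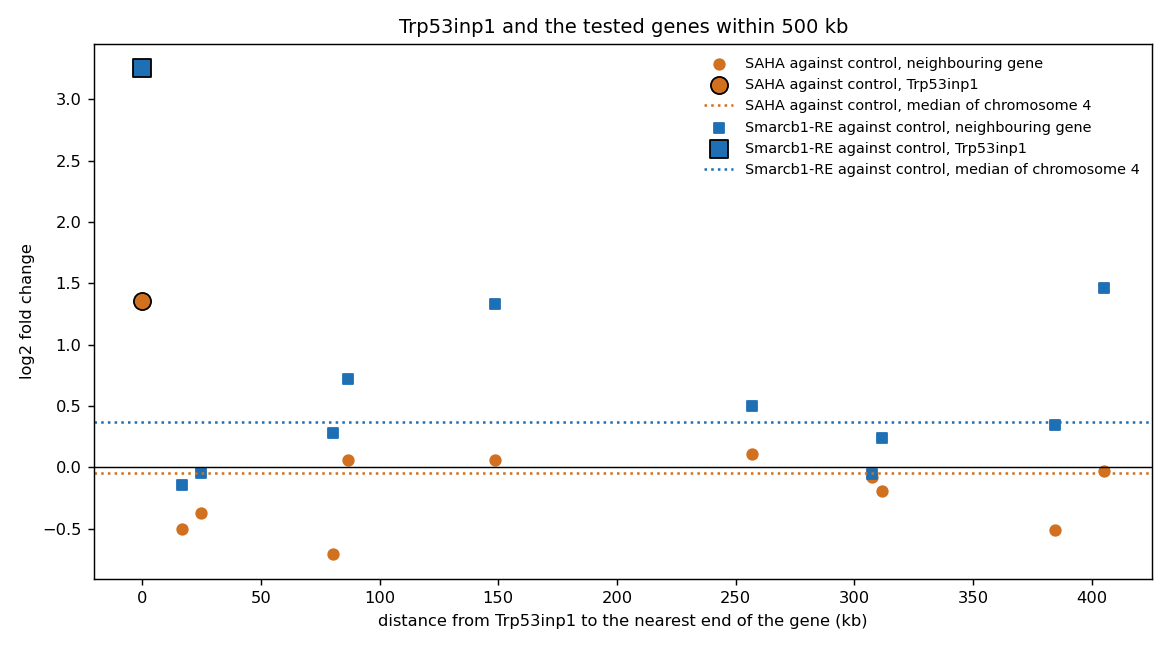
log2 fold change against control (vertical axis) of Trp53inp1, drawn at 0 kb, and of the 10 tested genes within 500 kb, by their distance from it in kb (horizontal axis); orange circles are SAHA, blue squares Smarcb1-RE, and dotted lines the medians of chromosome 4. Trp53inp1 stands at 1.35 and 3.25, above all its neighbors, the highest of which is Fsbp at 1.46 in Smarcb1-RE.

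Aen (ENSMUSG00000030609, chr7:78895854-78911209, plus strand), an exonuclease that degrades DNA during p53-dependent apoptosis, is a p53 target that fell in both treated groups. Its level was 81.4, 83.3 and 82.7 CPM in control, 66.4, 62.2 and 66.2 CPM in SAHA and 44.7, 47.0 and 43.5 CPM in Smarcb1-RE. The 3 groups formed separate steps. The decrease was 1.27-fold in SAHA (edgeR adjusted p = 1.52e-05) and 1.83-fold in Smarcb1-RE (edgeR adjusted p = 2.11e-09). Smarcb1-RE was 1.44-fold below SAHA (edgeR adjusted p = 2.8e-07).

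Zmat3 (ENSMUSG00000027663, chr3:32334792-32366014, minus strand), an RNA-binding zinc finger protein that regulates splicing, was lower with SAHA. It measured 50.5, 54.1 and 57.9 CPM in control, 45.0, 40.7 and 40.5 CPM in SAHA and 50.5, 54.9 and 47.9 CPM in Smarcb1-RE. SAHA libraries lay below both other groups, whereas Smarcb1-RE and control overlapped. The decrease with SAHA was 1.29-fold (edgeR adjusted p = 0.000344). For Smarcb1-RE against control the log2 difference was -0.08 (95% confidence interval -0.23 to 0.06, edgeR adjusted p = 0.25), and it turned to 0.07 with library totals.

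Phlda3 (ENSMUSG00000041801, chr1:135766119-135769136, plus strand), which competes with Akt for membrane lipids and thereby inhibits it, was barely expressed. The libraries held 18, 11 and 12 counts in control, 14, 13 and 17 in SAHA, whereas the Smarcb1-RE libraries had 2, 1 and 2, each under the detection floor. Control and SAHA overlapped (log2 difference 0.15 ± 0.31, edgeR adjusted p = 0.685), and Smarcb1-RE was below both. Over the 3 libraries of a group, 41 counts in control against 5 in Smarcb1-RE gave a ratio of 7.94 (95% counting interval 3.14 to 25.7), and 44 in SAHA against 5 gave 8.84 (3.51 to 28.6). The edgeR adjusted p was 7.19e-05 against control and 4.44e-05 against SAHA.

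**Figure D3:**
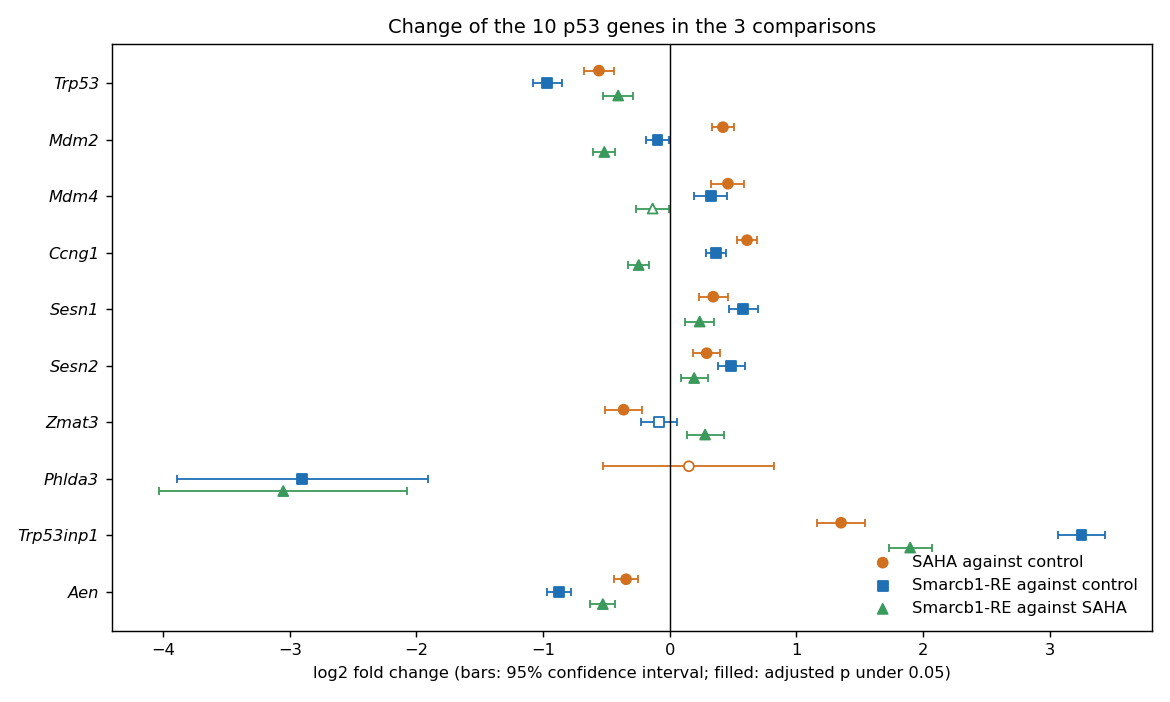
log2 fold change (horizontal axis) of each of the 10 p53 genes in SAHA against control (orange circles), Smarcb1-RE against control (blue squares) and Smarcb1-RE against SAHA (green triangles), with 95% confidence intervals; filled symbols have an adjusted p under 0.05. The interval of Phlda3 is the widest, and Zmat3 in Smarcb1-RE, Phlda3 in SAHA and Mdm4 between the treated groups are the open symbols.

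Directly compared, Smarcb1-RE cells had higher levels than SAHA-treated cells in 4 genes (Sesn1, Sesn2, Zmat3 and Trp53inp1) and lower levels in 5 (Trp53, Mdm2, Ccng1, Phlda3 and Aen). Of all tested genes, 37.7% were higher and 36.8% lower in this comparison, and in 80.0% the libraries of the groups did not overlap, as in all 10 p53 genes. With library totals only, the share of higher among all called genes moved from 50.6% to 62.1%. Mdm2 (1.43-fold) and Trp53inp1 (3.73-fold) thus differed in opposite directions.

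Compared per kilobase of exon, the order of the transcripts changed with the treatment, mainly through Trp53inp1. In control cells Ccng1 led with 170 CPM per kb (169.9 ± 3.32, SD, n = 3), followed by Trp53 with 63.7 ± 3.30, Sesn2 with 30.3 ± 2.08, Mdm2 with 16.9 ± 0.242, Aen with 14.2 ± 0.166, Mdm4 with 9.98 ± 1.03, Sesn1 with 9.39 ± 0.570, Trp53inp1 with 4.95 ± 0.529, Zmat3 with 4.74 ± 0.325 and Phlda3 with 0.369 ± 0.106. The ranges of Mdm4 and Sesn1, and those of Trp53inp1 and Zmat3, overlapped, so that these neighbors could not be ordered on this measure. In SAHA-treated cells Trp53inp1 rose to the sixth place with 12.7 ± 1.48 CPM per kb, and its range of 11.0 to 13.7 overlapped with those of its neighbors Mdm4 (13.7 ± 0.338) and Sesn1 (11.9 ± 0.535). In Smarcb1-RE cells it was second with 47.2 ± 0.279, behind Ccng1 (219 ± 2.99) and ahead of Sesn2 (42.5 ± 1.15) and Trp53 (32.6 ± 0.448), which had moved from the second to the fourth place. Dividing by the longest transcript instead of all exons changed 9 of the 30 places, none of them among the first 4. In control, Mdm4 was then at 20.8 ± 2.14 CPM per kb. This was above Aen (16.6 ± 0.195) and Sesn1 (9.82 ± 0.596), without overlap.

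The wider p53 pathway was described with 62 further target genes from general knowledge, of which 52 passed the low count filter. In SAHA-treated cells 16 were upregulated, 21 were downregulated and 15 did not pass, and their median log2 fold change was -0.10, compared with 0.00 for all tested genes. In Smarcb1-RE cells 23 rose, 24 fell and 5 did not pass, with a median of -0.10 compared with 0.01. With library totals both medians moved up, to 0.06 for the targets and 0.17 for all tested genes. The shares called higher were 30.8% in SAHA and 44.2% in Smarcb1-RE, compared with 32.6% and 39.2% of all tested genes. The shares called lower were 40.4% and 46.2%, compared with 34.3% and 38.6%. Whether these shares differ was not tested. Without control replicate 1, the counts were 16 higher and 21 lower in SAHA and 23 higher and 25 lower in Smarcb1-RE.

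**Figure D4:**
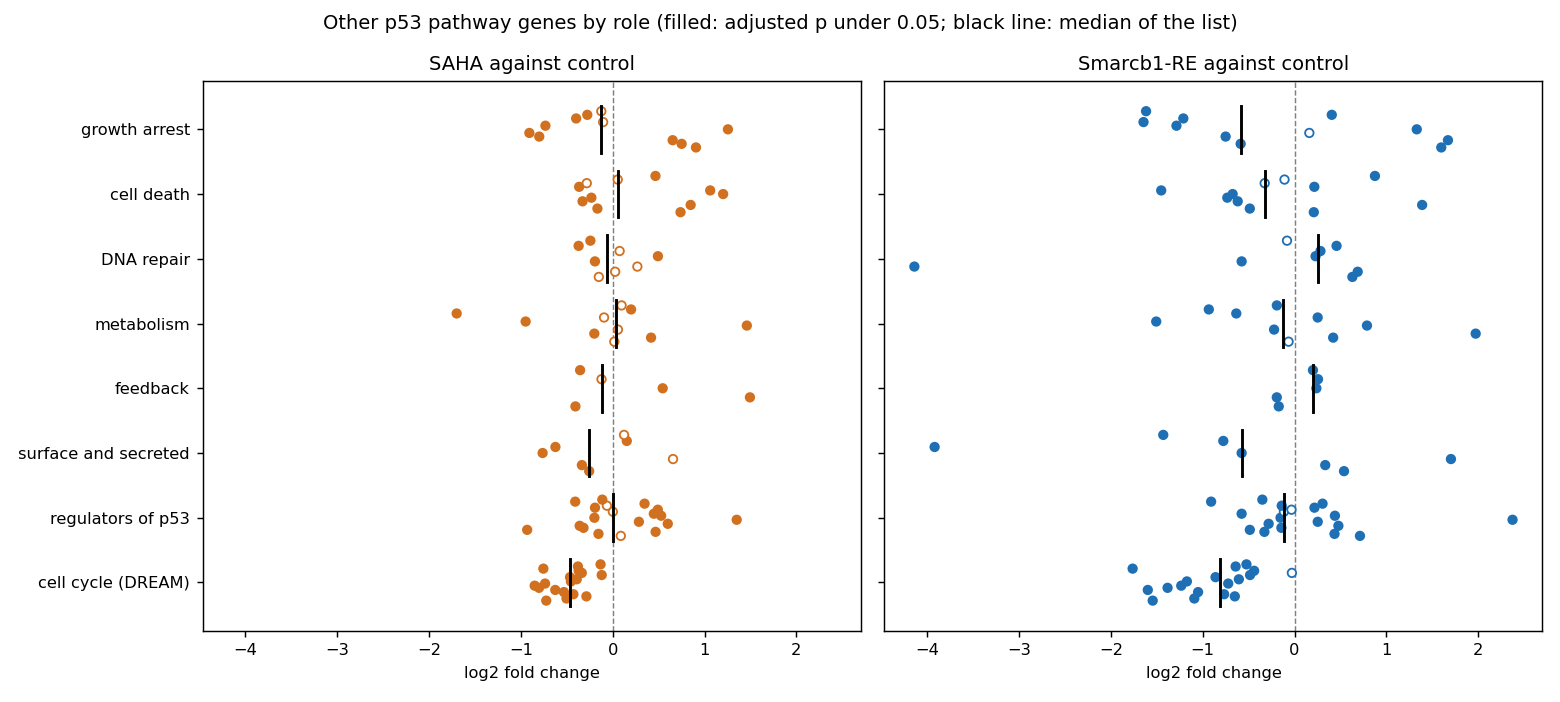
log2 fold change against control (horizontal axis) of further p53 pathway genes by role, for SAHA (left) and Smarcb1-RE (right); each point is a gene, filled where the adjusted p is under 0.05, and the black line is the median of the list. The lists of targets spread to both sides of 0, whereas all 18 cell cycle genes lie below 0, with medians of -0.46 and -0.81 (Mki67, at -0.03 in Smarcb1-RE, moves to 0.13 with library totals).

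Among the 11 tested genes of the growth arrest list, 4 (36.4%) rose and 5 (45.5%) fell in SAHA. In Smarcb1-RE 4 (36.4%) rose and 6 (54.5%) fell. The list also holds spindle proteins such as Ckap2, so its counts do not describe arrest alone. For comparison, of all tested genes, 32.6% rose and 34.3% fell in SAHA, and 39.2% rose and 38.6% fell in Smarcb1-RE. Cdkn1a, the cyclin-dependent kinase inhibitor p21, was low in control (1.96, 2.83 and 2.67 CPM), intermediate in SAHA (4.24, 3.80 and 3.70 CPM) and highest in Smarcb1-RE (7.85, 8.32 and 7.63 CPM). The groups did not overlap, with 1.57-fold for SAHA (edgeR adjusted p = 0.00184) and 3.18-fold for Smarcb1-RE (edgeR adjusted p = 2.2e-07). Its exons share 273 bases with an antisense gene model. Btg1, an antiproliferative cofactor, increased by 1.88-fold and 3.03-fold (edgeR adjusted p = 8.29e-09 and 1.87e-11), and Gadd45a, a stress sensor, by 2.39-fold and 2.52-fold (edgeR adjusted p = 0.000121 and 4.98e-05). Sfn, the G2 checkpoint protein 14-3-3 sigma, measured 97.2 ± 7.06 CPM (SD, n = 3) in control and dropped to 31.7 ± 1.02 CPM in Smarcb1-RE (edgeR adjusted p = 1.07e-10). In SAHA it was at 89.2 ± 3.34 CPM, without overlap with control, and did not pass (edgeR adjusted p = 0.0574). It passed as lower with library totals, without the low count filter and with a replicate block. The same held without control replicate 2 or 3 (edgeR adjusted p between 0.0245 and 0.0455 in all of these). Plk2, a kinase of the stress response, fell by 1.64 on the log2 scale in Smarcb1-RE (edgeR adjusted p = 2.9e-05). In SAHA the repressor E2f7 fell by 0.91 and the spindle protein Ckap2 by 0.80 (edgeR adjusted p = 2.37e-06 and 1.38e-08). Ckap2 was also lower in Smarcb1-RE (log2 difference -0.75, edgeR adjusted p = 7.21e-09). E2f7 did not pass there (log2 difference 0.16, edgeR adjusted p = 0.102), although it passed as higher with library totals (edgeR adjusted p = 0.00593).

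Of the 11 tested cell death genes, 5 (45.5%) rose and 4 (36.4%) fell in SAHA, compared with 32.6% and 34.3% of all tested genes. In Smarcb1-RE 4 (36.4%) rose and 5 (45.5%) fell, compared with 39.2% and 38.6%. Bbc3, the BH3-only protein Puma, increased from 10.4, 9.05 and 8.84 CPM in control to 16.3, 16.3 and 18.3 CPM in SAHA and 23.9, 25.3 and 24.9 CPM in Smarcb1-RE. These were changes of 1.80-fold and 2.62-fold (edgeR adjusted p = 1.01e-06 and 3.77e-09), without overlap. Bax, which permeabilizes the mitochondrial outer membrane, went the other way, from 60.6 ± 3.30 CPM in control to 54.0 ± 0.725 CPM in SAHA and 43.2 ± 1.68 CPM in Smarcb1-RE (edgeR adjusted p = 0.00877 and 1.22e-06); 192 bases of its exons are shared with another gene model on the same strand. Pmaip1, the BH3-only protein Noxa, measured 4.32 ± 0.355, 3.56 ± 0.212 and 3.45 ± 0.509 CPM and passed neither test (edgeR adjusted p = 0.106 and 0.0581). The death receptor Fas and the membrane protein Perp moved in opposite directions in the treated groups. In SAHA, Fas rose by 1.20 and Perp by 1.06 on the log2 scale (edgeR adjusted p = 3.44e-07 and 2.53e-07). In Smarcb1-RE they fell by 0.67 and by 1.45 (edgeR adjusted p = 0.000111 and 3.59e-08). Between the treated groups both differed, with log2 differences of -1.88 and -2.51 (edgeR adjusted p = 5e-09 and 1.93e-10).

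The other roles gave smaller counts, while all tested genes gave 32.6% higher and 34.3% lower calls in SAHA, and 39.2% and 38.6% in Smarcb1-RE. Of 8 DNA repair genes, 1 rose and 3 fell in SAHA, and 5 rose and 2 fell in Smarcb1-RE. Mgmt, which removes alkyl groups from guanine, held 79 counts in control and 92 in SAHA over 3 libraries, compared with 4 in Smarcb1-RE, a ratio of 19.1 against control (95% counting interval 7.18 to 71.9; edgeR adjusted p = 5.67e-06). Of 10 tested metabolic targets, 3 rose and 3 fell in SAHA, and 4 rose and 5 fell in Smarcb1-RE. Ddit4, an inhibitor of mTORC1 like the sestrins, was at 19.4 ± 0.616 CPM in control, 16.9 ± 1.53 CPM in SAHA and 76.3 ± 4.12 CPM in Smarcb1-RE, where it rose by 3.92-fold (edgeR adjusted p = 4.88e-11). The small decrease with SAHA (edgeR adjusted p = 0.0271) was not called without control replicate 2 or without SAHA replicate 1 (edgeR adjusted p = 0.0737 and 0.11). The glutaminase Gls2 rose with SAHA from 0.865 ± 0.217 to 2.39 ± 0.410 CPM (edgeR adjusted p = 0.000323). The antioxidant enzyme Gpx1 decreased from 124 CPM in control to 64.2 CPM in SAHA and 43.6 CPM in Smarcb1-RE (edgeR adjusted p = 5.23e-09 and 3.4e-11). Sco2, needed to assemble cytochrome c oxidase, went from 28.2 CPM in control down to 8.69 CPM in SAHA and 18.2 CPM in Smarcb1-RE (edgeR adjusted p = 1.46e-09 and 6.43e-07). Its exons share 856 of their 1253 bases with Tymp on the same strand, so that reads of both genes may be mixed in these values.

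Of 5 tested feedback genes, 2 rose and 2 fell in SAHA, and 3 rose and 2 fell in Smarcb1-RE. Pml, the organizer of nuclear bodies in which p53 is modified, increased from 119, 138 and 141 CPM in control to 351, 392 and 377 CPM in SAHA, or 2.82-fold (edgeR adjusted p = 2.33e-09). In Smarcb1-RE it was at 115, 114 and 118 CPM, below control by 0.19 on the log2 scale (a value of -0.19, edgeR adjusted p = 0.0141), a call lost with library totals (edgeR adjusted p = 0.645). Of 7 tested targets in the list labelled surface and secreted, which also holds other proteins, 1 rose and 4 fell in SAHA. In Smarcb1-RE 3 of them rose and 4 fell. The phosphatase Ptp4a3 fell by 0.76 on the log2 scale in SAHA (edgeR adjusted p = 4.47e-07). In Smarcb1-RE it was lower as well (log2 difference -0.58, edgeR adjusted p = 2.69e-06). The heparan sulfatase Sulf2 held 240 counts in control, 150 in SAHA and 15 in Smarcb1-RE (edgeR adjusted p = 0.0441 and 3.52e-07). Its call in SAHA was lost without control replicate 2 or 3 or without any of the 3 SAHA libraries (edgeR adjusted p between 0.0647 and 0.136). The receptor kinase Epha2, on chromosome 4, had 15, 23 and 48 counts in control, SAHA and Smarcb1-RE, and passed the test in Smarcb1-RE (edgeR adjusted p = 0.00183) but not in SAHA (edgeR adjusted p = 0.217); the difference between the treated groups passed with edgeR (adjusted p = 0.0227) and not with DESeq2 (adjusted p = 0.0985).

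Upstream of p53, 19 of 20 listed regulators were tested, and 8 rose and 8 fell in SAHA (42.1% each), compared with 8 and 9 (42.1% and 47.4%) in Smarcb1-RE. All tested genes gave 32.6% and 34.3% in the first comparison, and 39.2% and 38.6% in the second. Hipk2, a kinase that phosphorylates p53, was the regulator with the largest increase in both comparisons. It rose from 1.57, 1.99 and 1.69 CPM in control to 4.07, 4.29 and 5.04 CPM in SAHA (2.55-fold, edgeR adjusted p = 2.76e-06) and to 9.43, 8.94 and 8.88 CPM in Smarcb1-RE (5.18-fold, edgeR adjusted p = 4.56e-09). Cdkn2a, whose Arf product inhibits Mdm2 and whose transcripts for Ink4a and Arf were counted together, was higher in SAHA and lower in Smarcb1-RE, at 129.9, 113 and 111 CPM in control, 157, 169 and 165 CPM in SAHA and 95.2, 90.1 and 97.1 CPM in Smarcb1-RE. Both differences passed (edgeR adjusted p = 1.27e-05 and 0.000221), and so did that between the treated groups (edgeR adjusted p = 6.55e-08). Cdkn2a lies on chromosome 4, whose median log2 difference was 0.37 in Smarcb1-RE against control and 0.40 against SAHA. The corresponding values of Cdkn2a, -0.33 and -0.80, had the opposite sign. The part of the chromosome in them was not tested. The damage kinase Atm rose in Smarcb1-RE by 0.71 on the log2 scale (edgeR adjusted p = 1.78e-06), whereas in SAHA the value was 0.09 (edgeR adjusted p = 0.321), and the treated groups differed (edgeR adjusted p = 6.83e-06). The checkpoint kinase Chek1 fell by 0.93 in SAHA and by 0.49 in Smarcb1-RE (edgeR adjusted p = 2.03e-08 and 2.49e-06). Usp10, which removes ubiquitin from p53, fell by 0.41 and 0.91 (edgeR adjusted p = 8.06e-06 and 3.21e-09). Its exons share 99 bases with another gene model on the same strand. Daxx, a partner of Mdm2, rose by 0.60 in SAHA and fell by 0.28 in Smarcb1-RE (edgeR adjusted p = 2.66e-07 and 0.000188). Ppp1r13l, the inhibitor iASPP, likewise rose by 0.45 in SAHA and fell by 0.58 in Smarcb1-RE (edgeR adjusted p = 0.00106 and 0.000194).

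Finally, 18 cell cycle genes were examined that are lowered after p53 activation through p21 and the DREAM complex, and that also follow proliferation in general. All 18 were downregulated in SAHA and 17 in Smarcb1-RE, in which Mki67 did not pass (edgeR adjusted p = 0.65), whereas 34.3% and 38.6% of all tested genes were called lower. The medians were -0.46 and -0.81 on the log2 scale, compared with 0.00 and 0.01 for all tested genes, and in Smarcb1-RE with library totals they were -0.65 and 0.17. Plk1, the mitotic kinase, went from 104 CPM in control to 61.7 CPM in SAHA and 30.7 CPM in Smarcb1-RE (edgeR adjusted p = 8.1e-09 and 4.2e-12), and Ccnb1, cyclin B1, from 156 to 101 and 51.5 CPM (edgeR adjusted p = 7e-08 and 1.5e-11). Plk1, Ccnb1 and Mki67 were singled out after their values were seen. Without control replicate 1, the counts were again 18 and 17. The study reports slower growth of T15 cells after Smarcb1 re-expression, with no effect on viability or the cell cycle. The cause of the lower RNA levels was not tested.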

How the data were processed

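RNA of 9 T15 cultures was sequenced as single-end reads from directional libraries. The authors deposited 1 table of estimated counts per Ensembl gene, without normalization and without pooling; 52.4% of the values above 0 were not whole, and all were rounded. The submitters' processing notes name FastQC 0.11.8, MultiQC 1.7, Salmon 0.14.1, DESeq2 1.22.2 and GRCm38, without their roles, so how reads shared between similar genes were divided is not given in the sources used here. Of the listed genes, 99.5% were found in GENCODE M21 (release number 21), which gave symbols and coordinates.

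The counts were analyzed in R 4.3.3 with edgeR 4.0.16 (TMM factors, filterByExpr with a minimum count of 10, a single quasi-likelihood fit to all 9 libraries, Benjamini-Hochberg adjustment over 13697 genes). SEs were derived from the log2 fold change and its F statistic. The biological coefficient of variation was 5.24%. The fit was also run on simulated counts in which far fewer genes changed than in these data. That run therefore cannot show the error rate here.

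The 10 p53 genes and all other lists were chosen with earlier results of these data known; 1 listed marker gene is not reported here. Named genes were the 10, Smarcb1, Cdkn1a, Bax, Bbc3, Pmaip1 and Cdkn2a, and per comparison with control and direction the 5 targets and 2 regulators with the largest called change without overlap, and the 5 genes most correlated with Trp53. Alternatives were DESeq2 1.42.0, median-ratio factors, library totals, other filters, a replicate block, separate fits for pairs, a log2 fold change of at least 1, subtraction of the chromosome median, and leaving out each library.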

Additional observations from a re-analysis of the deposited data

How the results depend on the processing

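For the 10 p53 genes, 474 of 507 log2 fold changes recomputed under the alternatives kept their direction and their side of the threshold, 7 lost and 7 gained a call, 15 moved by more than their error after subtraction of the chromosome median, and 4 changed direction. With library totals, Mdm2 and Zmat3 in Smarcb1-RE against control turned to 0.0626 and 0.0735, and Mdm4 in Smarcb1-RE against SAHA to 0.0239; after subtraction of the chromosome median, Sesn2 in Smarcb1-RE against SAHA turned to -0.21. Mdm2 in Smarcb1-RE against control also lost its call with DESeq2 (adjusted p = 0.0624) and with at least 10 counts in every library (edgeR adjusted p = 0.38). For the other named genes, 1332 of 1378 values kept direction and call. Those that changed direction were Pmaip1 in Smarcb1-RE against SAHA (0.115 with library totals, and -0.175 to 0.046 when 1 library was left out, highest without Smarcb1-RE replicate 3), Atm in SAHA against control (-0.0108 to 0.184, lowest without control replicate 1) and Gadd45a in Smarcb1-RE against SAHA (-0.0884 to 0.255, lowest without SAHA replicate 1). The cause was not tested.

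A minimum absolute log2 fold change of 1 left 1 p53 gene higher (Trp53inp1) and 0 lower in SAHA against control, 1 higher and 1 lower (Phlda3) in Smarcb1-RE against control, and 1 higher and 1 lower in Smarcb1-RE against SAHA. Of the target lists it left 5 higher and 1 lower, 6 and 9, and 5 and 10 in the same order, and of all tested genes 1349 and 322, 2309 and 928, and 1582 and 1124. With at least 10 counts in every library, Phlda3 was not tested and 2 p53 genes were lower in Smarcb1-RE against control. Leaving out 1 library at a time gave 3 to 4 lower in that comparison. The replicate numbers do not pair the libraries (correlations of -0.072 to 0.037 between same-numbered ones), and with a replicate block 3 instead of 4 p53 genes were lower in Smarcb1-RE against control, without Mdm2. Depth limits Phlda3, Mgmt and Sulf2 in Smarcb1-RE.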

Other observations

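The p53 family members Trp63 and Trp73 were too low to be tested. Trp63, which guards epithelia and oocytes, had no count in any library, which allows up to 0.133 CPM by the detection floor. Trp73, on chromosome 4, held 4 counts in control and 1 in SAHA over the 3 libraries, and 33 in Smarcb1-RE, where the libraries were at 0.256, 0.487 and 0.690 CPM. Other listed targets under the filter were Rprm, Ptprv, Dram1, Steap3, Eda2r, Pltp, Kitl, Lif and Gdf15. The secreted factor Gdf15 had between 2 and 3 counts per group.

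Over the 9 libraries, the genes most like Trp53 in log2 CPM, among the 11318 genes whose average log2 CPM reached 1, were Tcof1, Smc1a, Polr1b, Utp20 and Sdad1, each with Pearson's r = 0.998. Tcof1 and Polr1b act in the transcription of ribosomal RNA, Utp20 and Sdad1 in ribosome assembly, and Smc1a is a subunit of cohesin. Tcof1 measured 200.2 CPM in control, 133 CPM in SAHA and 95.7 CPM in Smarcb1-RE. Among the p53 genes, r with Trp53 was 0.97 for Aen, 0.736 for Phlda3, 0.322 for Zmat3, 0.089 for Mdm2, -0.661 for Ccng1, -0.683 for Mdm4, -0.939 for Sesn2, -0.97 for Trp53inp1 and -0.976 for Sesn1. The 9 libraries fall into 3 groups and share their normalization, so these values describe the order of the group levels.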
